A study of Mus musculus with 17 samples.

Results

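Semaphorins are guidance cues that steer growing axons and, in the adult cortex, act on dendritic spines, synapses, vessels and myelinating cells. Their main receptors are the plexins, which act on small GTPases and the actin skeleton, and the secreted class 3 semaphorins mostly need a neuropilin as the ligand-binding partner of an A plexin. The genes of this family were followed in the nuclei of the cortex of mice exposed to chronic unpredictable stress (CUS). Members were chosen by name, as the protein-coding genes of the semaphorin classes 3 to 7, the A, B, C and D plexins and both neuropilins. This gave 31 of the 36293 genes listed for the bulk samples, of which 20 were semaphorins, 9 plexins and 2 neuropilins. The same 31 symbols were found among the 37608 genes of the single-nucleus tables.

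All mice were labelled C57BL/6 (C57Bl/6J in the study's methods), and the study calls them adult males. The CUS mice met 3 stressors a day for 12 days from an age of 9 to 10 weeks, while the control mice stayed in another room and were handled each day. Bulk nuclear RNA came from the medial prefrontal cortex (mPFC) of 4 control and 5 CUS mice at postnatal day 90. Single nuclei of the neocortex were profiled by sNucDrop-seq, a droplet method that tags each RNA molecule of a nucleus with a unique molecular identifier (UMI), in 4 control and 4 CUS mice at postnatal day 80. The labels place tissue collection 24 h after the final stressor, while the study's methods place that of the bulk mice after a last behavioral test. Control mice differed from CUS mice in room and handling too, which cannot be told apart from stress. The study's methods also state that the mice of the nuclei came from more than 1 batch with both groups in each and that its tests of the nuclei held a batch term because batch affected them strongly, but the labels tie no mouse to a batch or litter, so no batch entered the tests.

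Bulk libraries held 26188825 to 30525015 reads on genes per mouse. Of 40000 deposited nuclear barcodes, 26698 were kept, with a median of 2010 UMIs and 1274 genes, and these held 4699542 to 12477099 UMIs per mouse. Among the kept nuclei, 20 barcode sequences occurred in more than 1 mouse. Clusters of nuclei took a cell type name, written as "-like", only where that type's marker genes led them, and otherwise they are called by their leading gene. Markers of excitatory neurons of each layer, interneurons, astrocytes, oligodendrocytes, their precursors (OPC) and microglia each led at least 1 cluster. Striatal markers led a class of 1788 nuclei, and in bulk they set control replicate 4 apart from the other control mice.

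All 31 genes passed the filter on low counts in bulk. Levels there are CPM values, which scale the reads of a gene to the same library total in every mouse, after scaling by edgeR's TMM factors, and errors are SDs over mice. Dividing each level by the exonic length of its gene placed Plxna4 first, with 55.0 CPM per exonic kb, followed by Sema6d with 48.0, Plxna2 with 26.9 and Sema7a with 20.2. Sema3b, a secreted semaphorin, was lowest with 0.182 CPM per exonic kb. Nuclear RNA holds introns, and per kb of the whole gene the order differed. Sema7a was then first with 2.92 CPM per kb and Plxna4 had rank 4, with 1.75 CPM per kb.

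In bulk mPFC, both neuropilins and 1 A plexin were called different between CUS and control mice, and no semaphorin was. Nrp2 fell, Nrp1 rose and Plxna4 rose. Thus 1 gene was called lower and 2 higher, so 3 of 31 passed an FDR of 0.05 by the quasi-likelihood test of edgeR, where 3.29% of the 18394 genes tested were called in either direction, 2.13% lower and 1.16% higher. The median log2 fold change of the 31 genes was 0.02, against 0.01 for all genes tested. CUS and control mice did not overlap for 5 of the 31, where 8.76% of all tested genes did not overlap.

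**Figure D1:**
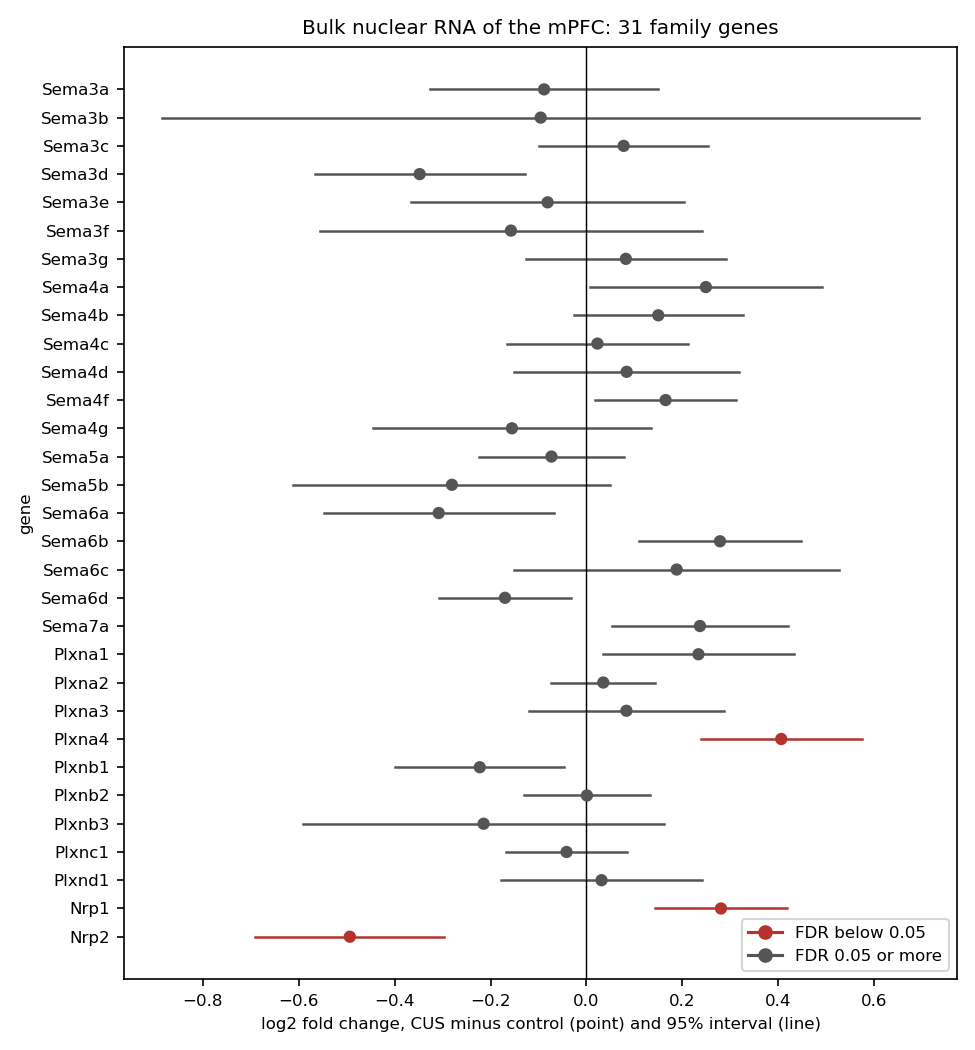
Log2 fold change of each of the 31 genes in bulk nuclear RNA of the mPFC, CUS minus control, on the horizontal axis, with genes as rows. Points are the fitted values and lines the 95% intervals of edgeR's quasi-likelihood fit, from 4 control and 5 CUS mice. Red marks Nrp2 at -0.49, Plxna4 at 0.41 and Nrp1 at 0.28, the genes past an FDR of 0.05.

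Nrp2 (neuropilin 2, ENSMUSG00000025969, mm10 chromosome 1, 62703285 to 62818695) binds Sema3f and other class 3 semaphorins and is known for limiting spines on the apical dendrites of cortical pyramidal neurons. The control mice had 71.8, 73.1, 64.8 and 91.3 CPM. The CUS mice had 56.7, 57.7, 54.3, 48.1 and 50.6 CPM. Every CUS mouse was thus below every control mouse, and the highest control mouse stood well above the other 3. The mean fell from 75.3 ± 11.3 CPM (SD, n = 4) to 53.5 ± 4.08 CPM (SD, n = 5), a log2 fold change of -0.49 with a standard error of 0.09 (edgeR quasi-likelihood test, FDR 0.0159). Without control replicate 4, the highest mouse, it was -0.38 (FDR 0.0229).

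Nrp1 (neuropilin 1, ENSMUSG00000025810, chromosome 8, 128358604 to 128503363), the binding partner of Sema3a and also a co-receptor of vascular growth factor, went the other way. It was at 113, 113, 136 and 125 CPM in control mice. It was at 149, 138, 148, 150 and 153 CPM in CUS mice. The groups were separate, although the highest control mouse lay just below the lowest CUS mouse. The mean rose from 122 ± 11.0 CPM (SD, n = 4) to 148 ± 5.62 CPM (SD, n = 5), a log2 fold change of 0.28 with a standard error of 0.06 (edgeR quasi-likelihood test, FDR 0.0368).

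Since the neuropilins moved in opposite directions, their promoter windows are given side by side, as the 250 bases before and 50 after the RefSeq start in GRCm38.p6. The Nrp1 window is chr8:128358823-128359122 on the + strand, with its start 469 bases from the gene start in the deposited files, and that of Nrp2 is chr1:62703067-62703366 on the + strand, 32 bases from it. Capitals mark GC boxes (GGGCGG on either strand), the element bound by Sp factors.
Nrp1: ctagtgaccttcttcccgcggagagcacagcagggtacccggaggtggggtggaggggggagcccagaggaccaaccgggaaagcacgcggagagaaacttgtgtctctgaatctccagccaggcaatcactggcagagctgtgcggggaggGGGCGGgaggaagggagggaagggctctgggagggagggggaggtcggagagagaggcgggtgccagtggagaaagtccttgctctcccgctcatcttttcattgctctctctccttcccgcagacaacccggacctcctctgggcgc
Nrp2: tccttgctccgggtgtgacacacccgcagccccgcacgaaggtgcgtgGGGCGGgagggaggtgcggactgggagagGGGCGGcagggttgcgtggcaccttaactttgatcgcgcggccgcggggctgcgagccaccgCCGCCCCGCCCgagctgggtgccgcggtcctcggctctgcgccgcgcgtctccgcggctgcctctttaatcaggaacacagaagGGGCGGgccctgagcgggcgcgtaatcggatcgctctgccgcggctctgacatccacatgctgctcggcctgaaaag
The Nrp1 window held 1 GC box and the Nrp2 window 5, of which a pair on the opposite strand overlap by 1 base. A GC box was found in 35.7% of the 32851 mouse promoter windows of this length, and in the first window listed for 20 of the 26 genes of the family that the table holds. Neither window held a cAMP response element (TGACGTCA), an AP-1 site (TGANTCA), a core YY1 motif (AANATGGC), an EGR site (GCGTGGGCG), an E-box (CACGTG) or a half-site of the glucocorticoid receptor (AGAACA), each searched on both strands. These 6 motifs occur in 0.612% to 19.0% of the same promoter windows. A match or its absence describes these letters only.

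Plxna4 (plexin A4, ENSMUSG00000029765, chromosome 6, 32144268 to 32588192, minus strand) pairs with neuropilins as a receptor of Sema3a and also binds class 6 semaphorins directly. Control mice had 628, 627, 782 and 593 CPM. CUS mice had 906, 878, 898, 848 and 827 CPM, all above the control mice, of which replicate 3 was the nearest. The mean rose from 658 ± 84.8 CPM (SD, n = 4) to 871 ± 33.1 CPM (SD, n = 5), a log2 fold change of 0.41 with a standard error of 0.08 (edgeR quasi-likelihood test, FDR 0.0178). Genes annotated inside these loci added little. The 3 antisense transcripts in Plxna4 had at most 9 reads in a mouse, and Gm29083, antisense to Nrp2, had 3 to 19. Mir1903, which lies in Nrp1 on the same strand, had 26 to 52 reads, 0.971% of the reads of Nrp1.

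**Figure D2:**
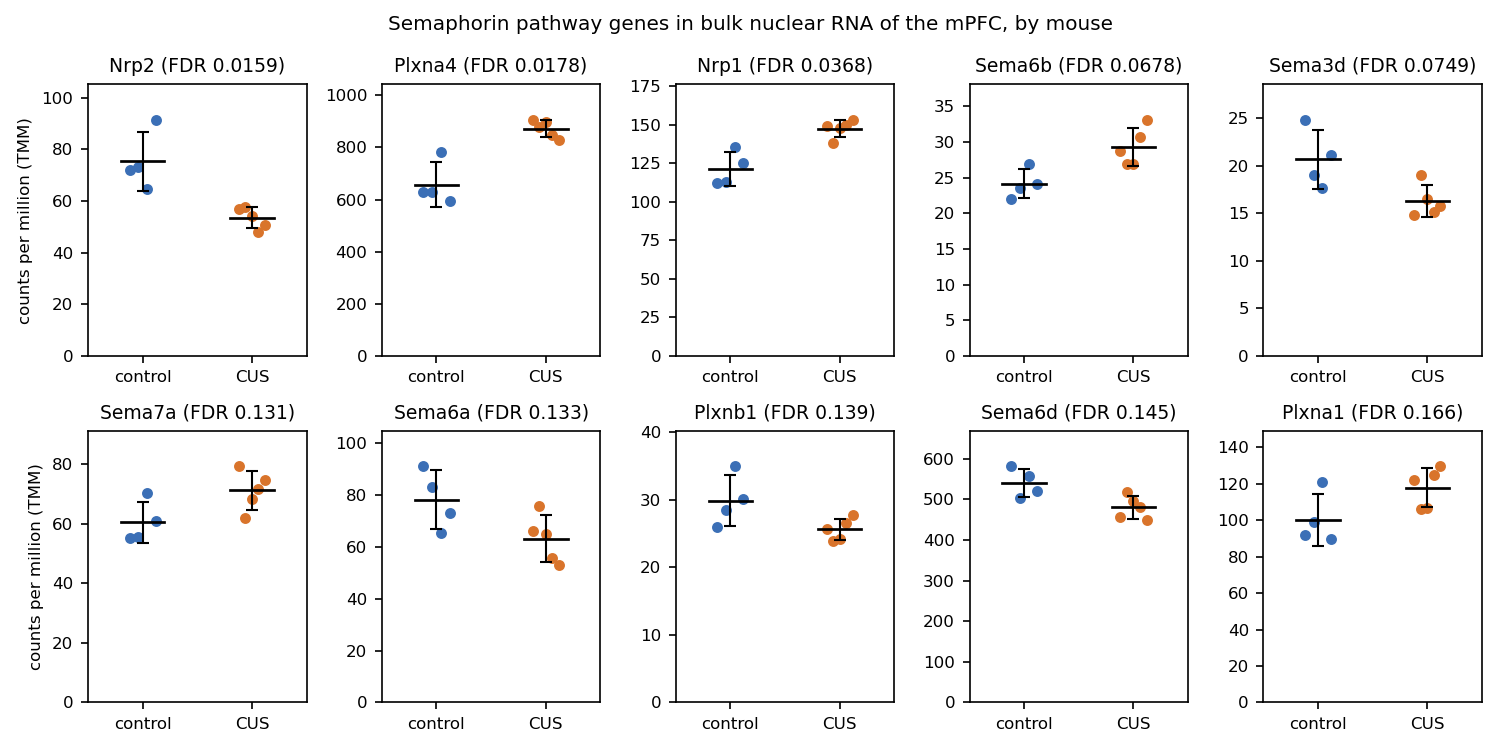
CPM in each mouse, on the vertical axis, for the 10 genes of the family with the smallest p in bulk, in 4 control (blue) and 5 CUS (orange) mice. Bars are means ± SD, and only Nrp2, Plxna4, Nrp1 and Sema6b show CUS mice wholly apart from control mice.

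The calls rested on the mice included. None of the 31 genes was called without control replicate 2 or without CUS replicate 4, 1 was called without CUS replicate 5 (Plxna4), and 9 were called without control replicate 3. Calls over all genes moved in the same direction, from 606 to 133, 148, 140 and 1508 in these fits. The log2 fold changes moved less. Over 15 other fits that of Nrp2 lay between -0.57 and -0.38, that of Plxna4 between 0.37 and 0.49 and that of Nrp1 between 0.24 and 0.33, and Plxna4 passed the FDR in 13 of them, Nrp2 in 11 and Nrp1 in 8.

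A further 9 genes had an unadjusted p under 0.05 without passing the FDR, so that 12 of 31 were under this limit, against 21.5% of all genes tested. Among them Sema6b, a membrane-bound class 6 semaphorin on chromosome 17, had 22.01, 23.6, 26.9 and 24.1 CPM in control mice. It had 28.7, 26.9, 26.9, 30.7 and 33.1 CPM in CUS mice. The lowest CUS mouse was only just above the highest control mouse, and the log2 fold change was 0.28 with a standard error of 0.08 (edgeR FDR 0.0678). Sema7a, the membrane-anchored ligand of plexin C1 and of integrins, had 55.3, 55.6, 70.3 and 60.9 CPM in control mice and 79.3, 62.2, 68.3, 71.9 and 74.8 CPM in CUS mice (log2 fold change 0.24, edgeR FDR 0.131). Control replicate 3 lay within the range of the CUS mice.

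Plxna1, a receptor of Sema6d and a neuropilin partner, had 91.8, 98.9, 121 and 90.0 CPM in control mice and 122, 106, 107, 125 and 130 CPM in CUS mice (log2 fold change 0.23, edgeR FDR 0.166). Here too control replicate 3 was the mouse that overlapped. All 4 A plexins had fitted values above 0, with log2 fold changes from 0.04 for Plxna2 to 0.41 for Plxna4. Sema4f had a log2 fold change of 0.17 with groups that did not overlap (edgeR FDR 0.181), and Sema4a one of 0.25 (edgeR FDR 0.219).

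The other 4 of these genes had lower means in CUS mice. Sema3d, a secreted semaphorin, had 24.8, 19.0, 17.7 and 21.1 CPM in control mice and 14.8, 19.1, 16.5, 15.2 and 15.7 CPM in CUS mice, where replicate 2 overlapped the control mice (log2 fold change -0.35, standard error 0.10, edgeR FDR 0.0749). Sema6a, a transmembrane ligand of plexins A2 and A4, had 91.1, 83.3, 65.3 and 73.2 CPM in control mice and 66.0, 75.9, 65.1, 55.8 and 53.2 CPM in CUS mice (log2 fold change -0.31, edgeR FDR 0.133). The groups of Sema6a overlapped over a wide range. Plxnb1, the receptor of Sema4d, had 26.01, 28.5, 35.0 and 30.1 CPM in control mice and 25.7, 24.0, 24.2, 26.5 and 27.7 CPM in CUS mice (log2 fold change -0.22, edgeR FDR 0.139). Sema6d had 581, 503, 557 and 521 CPM in control mice and 457, 518, 497, 481 and 448 CPM in CUS mice (log2 fold change -0.17, edgeR FDR 0.145). In both genes a single control mouse reached into the range of the CUS mice, or in Sema6d a single CUS mouse into that of the control mice.

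The remaining 19 genes had an unadjusted p of 0.05 or more, with log2 fold changes from -0.28 for Sema5b to 0.19 for Sema6c. The half-width of the 95% interval was 0.20 at the median over the 31 genes, with a range from 0.11 for Plxna2 to 0.79 for Sema3b. By class, 5 of the 7 class 3 semaphorins and both class 5 semaphorins had lower fitted values in CUS mice, as did 1 of the 6 class 4 semaphorins and 2 of the 3 B plexins, with no call in any of these groups.

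The level of the family across classes of nuclei was described next, without a test, since the classes were drawn from the same nuclei. Values are CPM per class, as means ± SD over all 8 mice. They are shares of the UMIs of a class, not amounts per nucleus. Relative to the median nucleus of the same mouse, the median UMI number was 0.551 in OPC-like, 0.583 in Oligo_Opalin-like and 0.595 in astrocyte-like nuclei. It was 0.785 in microglia-like nuclei and 0.764 to 1.608 in the other classes of over 200 nuclei. The order of classes per nucleus was not examined. There were 25 classes with over 200 nuclei, and 19 of the 31 genes reached 50 CPM in at least 1 of them. Of these 19, 4 were secreted semaphorins, of which Sema3d alone had a top class that did not overlap the next. Sema3a reached 166 ± 31.7 CPM in Inh_Sst-like nuclei and 131 ± 30.3 CPM in striatal-like nuclei. Sema3c reached 318 ± 127 CPM in Inh_Vip-like nuclei and 246 ± 72.6 CPM in Inh_Ndnf-like nuclei. Sema3e stood at 249 ± 85.6 CPM in Inh_Ndnf-like nuclei and at 240 ± 83.1 CPM in the excitatory Ex_L5/6_NP-like nuclei. Sema3d reached 407 ± 95.3 CPM in OPC-like nuclei, against 37.0 ± 24.8 CPM in the class that followed, Oligo_Opalin-like, and the mice of these classes did not overlap.

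Of the 7 others among the semaphorins, which are membrane-bound, 6 were highest in a glial class. Sema6d had 843 ± 171 CPM in OPC-like nuclei and 605 ± 183 CPM in the cluster led by Pbx3, ranges that overlapped. Sema6a reached 476 ± 91.2 CPM in Oligo_Opalin-like nuclei, Sema5b 184 ± 67.1 CPM in OPC-like nuclei and Sema4d, which acts on B plexins, 113 ± 35.3 CPM in Oligo_Opalin-like nuclei with 111 ± 68.5 CPM in microglia-like nuclei. Sema4a and Sema4b peaked in astrocyte-like nuclei, at 78.6 ± 14.6 and 65.0 ± 10.4 CPM. Sema5a was an exception, with 430 ± 73.9 CPM in Inh_Ndnf-like nuclei, above every mouse's value in OPC-like nuclei, which came next at 215 ± 64.6 CPM.

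Among the receptors that reached 50 CPM, the A plexins were highest in neurons and the B plexins in glia. Plxna2 reached 433 ± 27.3 CPM in Ex_L6-like nuclei and Plxna4 394 ± 44.1 CPM in Inh_Pv-like nuclei, the class where Plxnc1 was also highest, at 122 ± 14.4 CPM. Plxnb1 reached 102 ± 26.2 CPM in astrocyte-like nuclei and Plxnb3 139 ± 37.9 CPM in Oligo_Opalin-like nuclei. Plxnd1, the direct receptor of Sema3e, reached 75.4 ± 30.5 CPM in the cluster led by Fyb2. The neuropilins differed in their places. Nrp1 was highest in Ex_L6-like nuclei (340 ± 44.3 CPM) and the cluster led by Cpne7 (334 ± 105 CPM), and Nrp2 in the cluster led by C130073E24Rik (179 ± 36.6 CPM) and in Ex_L6b-like nuclei (171 ± 54.9 CPM). In Ex_L5-like nuclei Nrp1 stood at 242 ± 35.3 CPM, while Nrp2 had there its lowest level of all 25 classes, 12.3 ± 8.57 CPM.

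**Figure D3:**
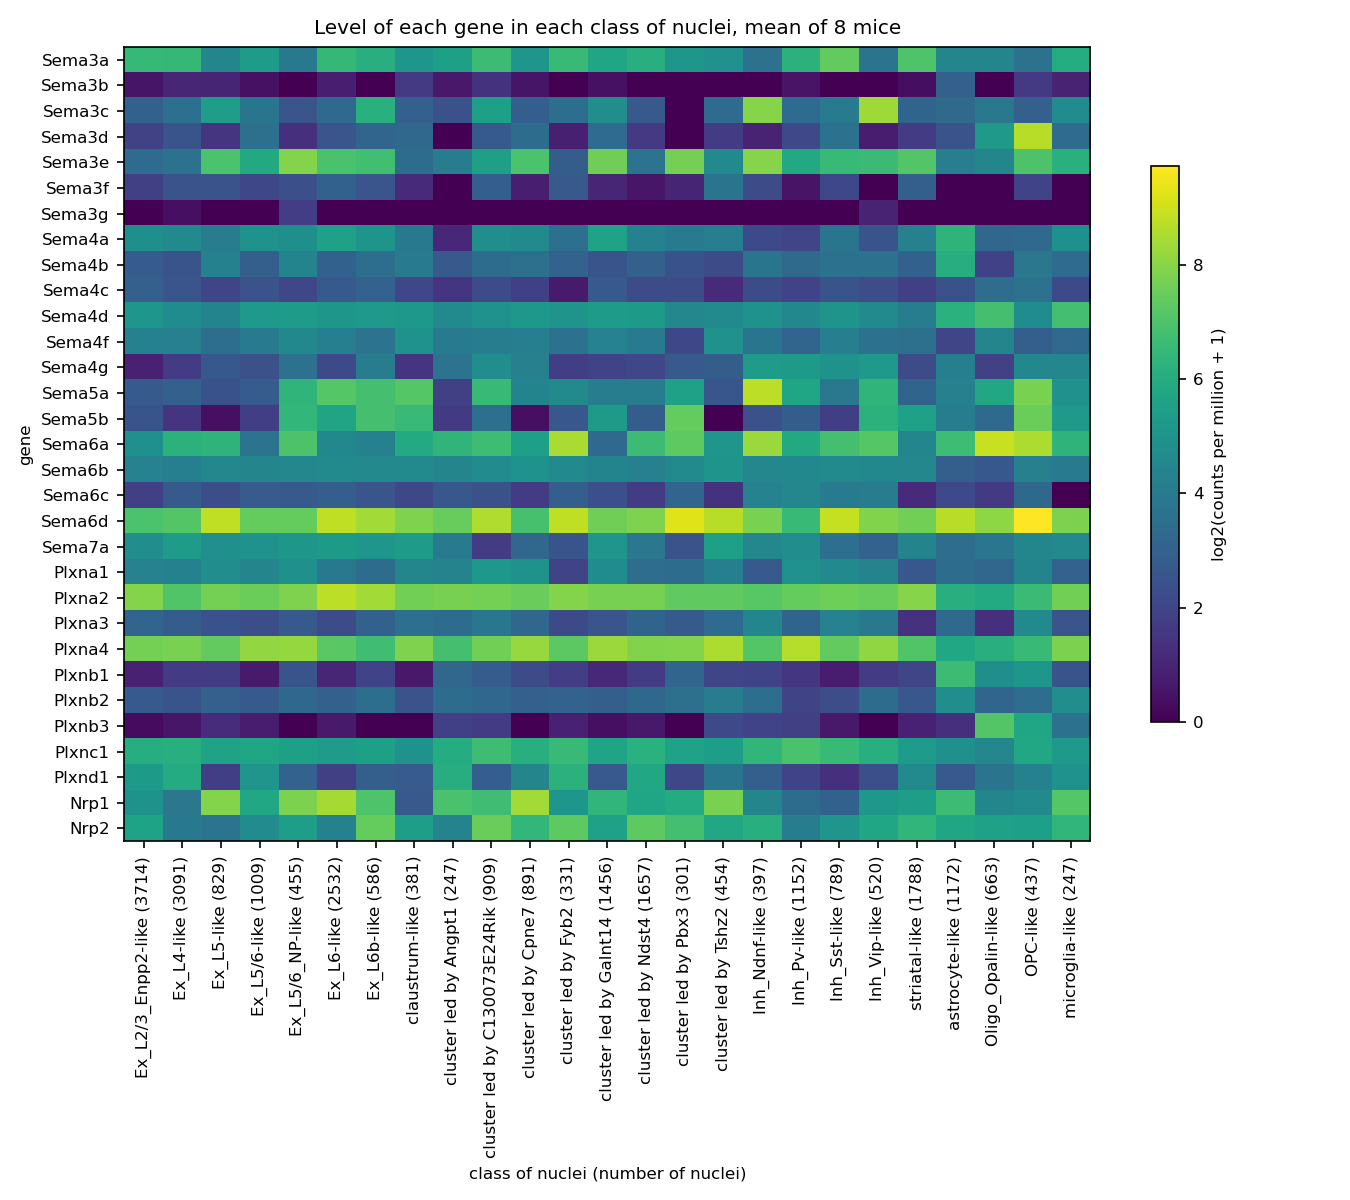
Level of each gene of the family (rows) in the 25 classes with over 200 nuclei (columns, with their numbers of nuclei), as log2 of the mean CPM of 8 mice plus 1. Sema6d in OPC-like nuclei, reaches 843 CPM, and the rows of Plxna2 and Plxna4 are bright across the neuronal columns.

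Smaller classes held still higher levels, with few nuclei behind them. Sema3c reached 833 ± 831 CPM and Sema7a 241 ± 241 CPM in 59 endothelial-like nuclei, of which 57.6% came from 1 mouse, and Plxnd1 (109 ± 120 CPM) and Sema4c (59.8 ± 114 CPM) were also highest there. In 79 Oligo_Enpp6-like nuclei, a stage of newly formed oligodendrocytes, Sema5a reached 764 ± 424 CPM, Sema4d 415 ± 284 CPM, Plxnb3 345 ± 297 CPM and Sema5b 186 ± 105 CPM. Nrp2 stood at 659 ± 295 CPM and Plxna1 at 78.3 ± 90.6 CPM in the 63 nuclei led by Drd3. In the 138 nuclei led by Prox1, Plxna4 was at 600 ± 297 CPM and Nrp1 at 441 ± 238 CPM. Sema3a (452 ± 298 CPM) and Sema3d (505 ± 416 CPM) were highest in 57 nuclei led by Slc47a1.

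The bulk values could be set beside these places. Among the classes over 200 nuclei, 13 of the 31 genes were highest in a glial class, and their bulk fitted values were below 0 for 7 and above 0 for 6, with a median log2 fold change of -0.10. The other 18 were highest in a class without a glial name, counted as neuronal, with 7 below 0, 11 above 0 and a median of 0.06. Classes of 200 nuclei or fewer, such as endothelial-like, did not count here. Only 4 of the 31 (Sema3d, Sema4b, Sema5a and Plxnb1) had a top class that did not overlap the next over mice. The top classes of Sema3b and Sema3g held only 6.88 and 2.42 CPM. The split is thus a description of unresolved places for most of the 31 genes, ranked by CPM and not per nucleus.

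Some markers of cell types were called in bulk, and most were not. Of 12 astrocyte markers, 3 were called lower (Gja1, Aqp4 and Slc4a4) and none higher, with a median log2 fold change of -0.21, and their summed level was 2545 to 2958 CPM in control and 2300 to 2681 CPM in CUS mice. Of 12 markers of Oligo_Opalin, only St18 was called, and it was lower, with a median of -0.51 and summed levels of 375 to 832 CPM in control and 393 to 495 CPM in CUS mice. Of 7 Oligo_Enpp6 markers, Bcas1 and Tcf7l2 were called lower, with a median of -0.23. Of 12 microglia markers none was called, and their median was 0.05. None was called among 11 endothelial markers (median 0.13) and 7 of mural cells of vessels (median 0.11). The same held for 7 Ex_L2/3_Enpp2 markers (median 0.04) and 6 Ex_L5/6 markers (median 0.11). Of 8 OPC markers, Ptprz1 and Lhfpl3 were called lower and Tnr higher, and the 7 markers other than Tnr all had fitted values below 0, with a median of -0.19 over the list. Their summed level went the other way, 1298 to 1547 CPM in control and 1562 to 1718 CPM in CUS mice, as Tnr alone went from a mean of 845 to 1230 CPM. Markers of Ex_L5 had 1 of 8 called, higher (Ldb2), with summed levels of 628 to 857 CPM in control and 870 to 955 CPM in CUS mice. Most of this rise was that of Ldb2, with means of 498 and 692 CPM, where the sum had means of 728 and 928 CPM. Of the other Ex_L5 markers, Bcl6, Parm1 and Npr3 had fitted values below 0, and Vat1l, Fezf2, Pou3f1 and Bcl11b above 0. All 5 general markers of excitatory neurons had fitted values above 0, with a median of 0.24 and 1 called (Neurod6), and summed levels of 759 to 1242 CPM in control and 1001 to 1098 CPM in CUS mice. The 3 general markers of inhibitory neurons tested were all below 0, with a median of -0.26 and none called, and summed levels of 92.3 to 148 CPM in control and 88.2 to 128 CPM in CUS mice. Among interneuron types, medians were 0.11 for Inh_Pv and 0.12 for Inh_Sst, with none called, and -0.15 for Inh_Vip and -0.11 for Inh_Ndnf. Of 8 Inh_Vip markers 1 was called higher, and of 7 Inh_Ndnf markers 1 was called higher and 1 lower. Igf2 was called lower among 7 fibroblast markers (median -0.61). Of 7 markers of choroid plexus only 2 were tested (median -1.43), and Clic6 was called lower at very low levels. It had 0.944, 0.303, 0.598 and 3.03 CPM in control mice, with replicate 4 highest, and 0.101 to 0.355 CPM in CUS mice. Of 9 Ex_L6 markers, Garnl3 was called higher and Ntsr1 lower. Brinp3 was called lower among 7 Ex_L4 markers, Nr4a2 lower among 6 of claustrum and Slc17a8 higher among 7 of Ex_L5/6_NP. The 5 Ex_L6b markers tested were all below 0, with a median of -0.34 and none called. Their summed level was 264 to 355 CPM in control and 196 to 293 CPM in CUS mice. The sums of Ex_L5 and OPC markers did not overlap between the groups, which gave p = 0.00794, the smallest that an exact permutation test of 4 mice against 5 allows (Benjamini-Hochberg p 0.0952 over 24 lists). With this floor, 2 such lists alone cannot pass 0.05 after adjustment.

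The mouse set apart by striatal markers, control replicate 4, had 19.0 CPM of Drd2 against 1.79 to 4.15 CPM in the other control mice, and 139 CPM of Rarb against 31.4 to 45.8 CPM. The median log2 fold change of the 9 striatal markers tested was -0.77, and 8 had fitted values below 0, none of them called. The exception was Pde10a, called higher, which rose from 778 to 1187 CPM and made up most of the sum of the list. Without this mouse the log2 fold change of Nrp1 was 0.30 and that of Plxna4 0.37, and both were still called, as was Nrp2. The part of these markers in the family's bulk values was not tested. In bulk tissue, fewer cells of a type and less RNA per cell cannot be told apart.

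In the nuclei summed over all classes, no gene of the family was called. Of the 31 genes, 10 passed the filter that summed UMIs exceed 10% of the nuclei, and 0 passed an FDR of 0.2 in edgeR's quasi-likelihood test or had an unadjusted p under 0.05, where 0.0199% of the 5018 genes tested were called. DESeq2 and edgeR's likelihood ratio test also called 0. The lowest fitted value was that of Plxnc1, with a log2 fold change of -0.20. For Nrp1 the nuclei gave 96.1 ± 4.34 CPM in control and 104 ± 10.4 CPM in CUS mice (SD, n = 4 each), a log2 fold change of 0.13 with a standard error of 0.10, and for Nrp2 they gave 63.4 ± 9.85 and 58.6 ± 6.13 CPM, a log2 fold change of -0.11 with a standard error of 0.11. Over the alternatives that of Nrp2 lay between -0.16 and -0.013 and that of Plxnc1 between -0.28 and -0.089. Plxna4 had 216 ± 21.96 and 209 ± 16.9 CPM, a log2 fold change of -0.03 with a standard error of 0.09. The nuclei came from other mice, another age and more of the cortex than the bulk samples. They were also counted as UMIs in droplets, not as reads of bulk nuclear RNA. By the study's methods, bulk collection followed behavioral tests.

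**Figure D4:**
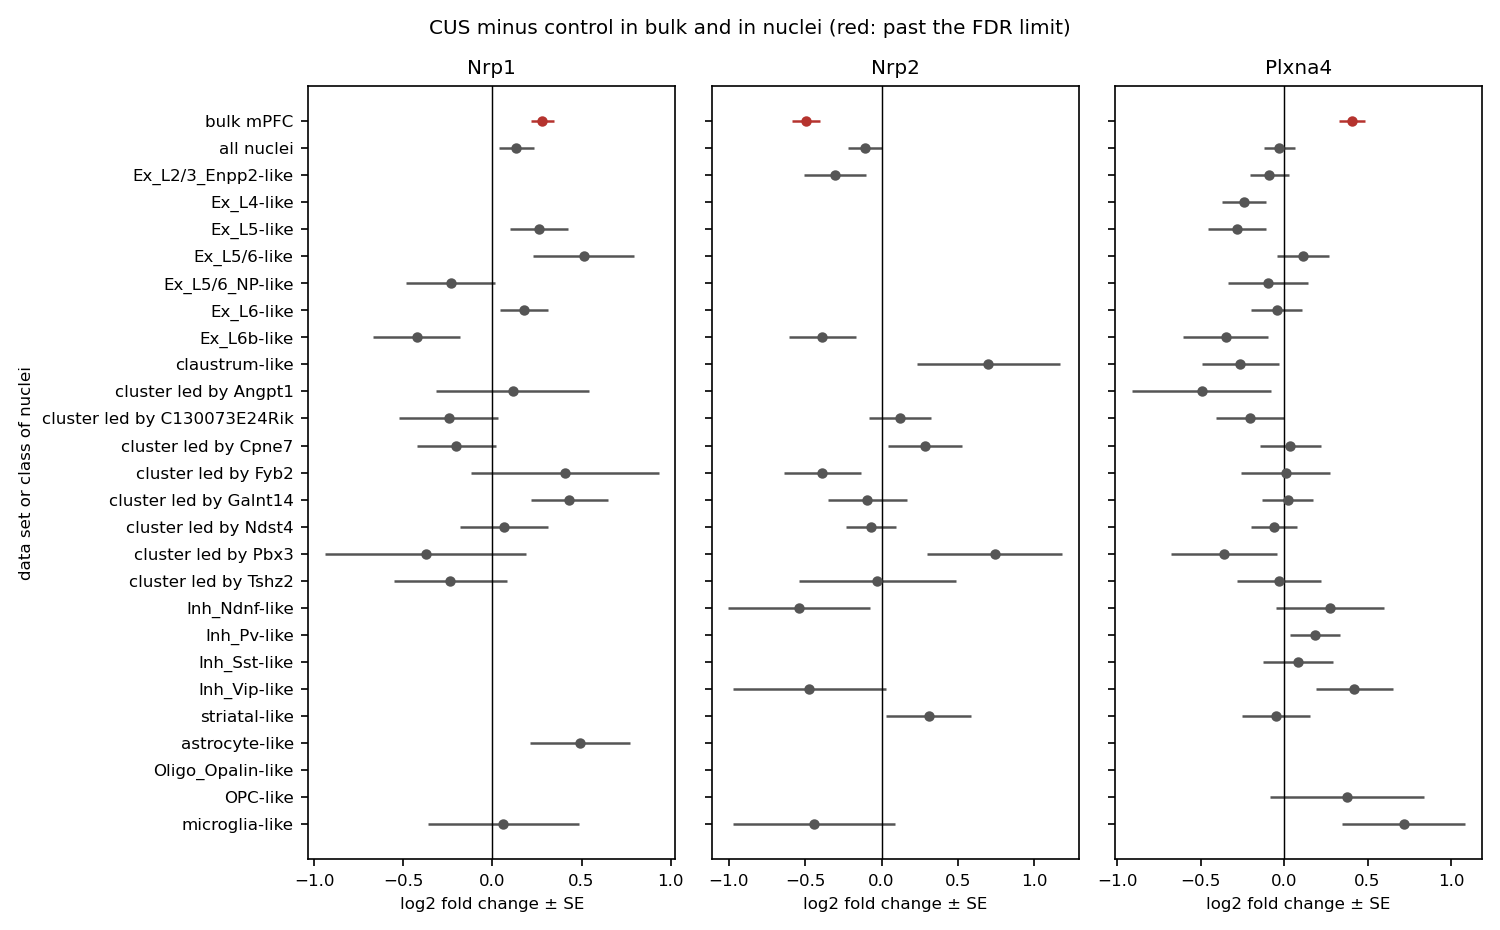
Log2 fold change of Nrp1, Nrp2 and Plxna4, CUS minus control, on the horizontal axis, in bulk mPFC, in all nuclei and in each class where the gene was tested (rows). Points are fitted values, lines are ± 1 standard error, and red marks values past the FDR limit, which only the bulk values of 0.28, -0.49 and 0.41 are.

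Within classes, 1 gene of the family was called. Sema6d was lower in Ex_L2/3_Enpp2-like nuclei, a class of upper-layer excitatory neurons. Over the 25 classes, 20 of the 31 genes passed the filter in at least 1 class, which gave 210 pairs of gene and class, of which 1 passed an FDR of 0.2 within its class. Over all genes and the 25 classes, 0.111% of pairs were called. An unadjusted p under 0.05 was found in 17 of the 210 pairs, against 5.98% of all pairs. Fitted values were below 0 in 122 of the 210 pairs and above 0 in 88. In Ex_L2/3_Enpp2-like nuclei all 7 family genes tested, Sema6d among them, were below 0. Their median was -0.26, against 0.01 for all genes tested there, and Plxna2 also had an unadjusted p under 0.05. These genes were measured in the same mice, and their common sign was not tested. The 11 genes below the filter in every class were Plxna3, Plxnb2, Sema3b, Sema3f, Sema3g, Sema4b, Sema4c, Sema4f, Sema4g, Sema6b and Sema6c.

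Sema6d (semaphorin 6D, ENSMUSG00000027200, chromosome 2, 124089969 to 124667770) is a transmembrane ligand of plexin A1. In Ex_L2/3_Enpp2-like nuclei it had 151, 152, 131 and 142 CPM in control mice. It had 107, 92.7, 113 and 101.1 CPM in CUS mice. The groups were separate, as they were for 5.31% of the genes tested in this class. The mean fell from 144 ± 9.87 to 103 ± 8.58 CPM (SD, n = 4 each), a log2 fold change of -0.45 with a standard error of 0.13 (edgeR quasi-likelihood test, FDR 0.179), where 0.522% of the 5369 genes tested were called lower. The call was narrow, and it was lost when any of 6 mice was left out, with control replicate 3 and CUS replicate 2 as the exceptions. It was also lost without TMM factors, without the filter on low counts and with a minimum of 1000 genes per nucleus, while the log2 fold change stayed between -0.55 and -0.38 in all 19 other fits.

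Whether Sema6d differed more in this class than elsewhere was asked in the same mice, with CPM not scaled by TMM factors. The pair was picked for its call in these values, so the test below is not independent of that call. In all other nuclei together Sema6d had 279 ± 22.9 CPM in control and 253 ± 35.5 CPM in CUS mice (SD, n = 4 each). The log2 ratio of the level in Ex_L2/3_Enpp2-like nuclei to that in the other nuclei was -0.96 ± 0.16 in control and -1.26 ± 0.33 in CUS mice, a difference of -0.30 (two-sided exact permutation test, p = 0.114, where 0.0286 is the smallest p for 4 mice against 4). Sema6d was tested in all 25 classes, which share the same mice, with fitted values below 0 in 21 and above 0 in 4. The lowest was -0.72 in claustrum-like nuclei (edgeR FDR 0.500) and the highest 0.44 in the cluster led by Angpt1. In OPC-like nuclei, where its level was highest, the log2 fold change was 0.10. Besides Ex_L2/3_Enpp2-like, Sema6d had lower values with an unadjusted p under 0.05 in claustrum-like and Inh_Sst-like nuclei and the cluster led by Ndst4. The study uses Ndst4 to name another layer 2/3 excitatory class.

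**Figure D5:**
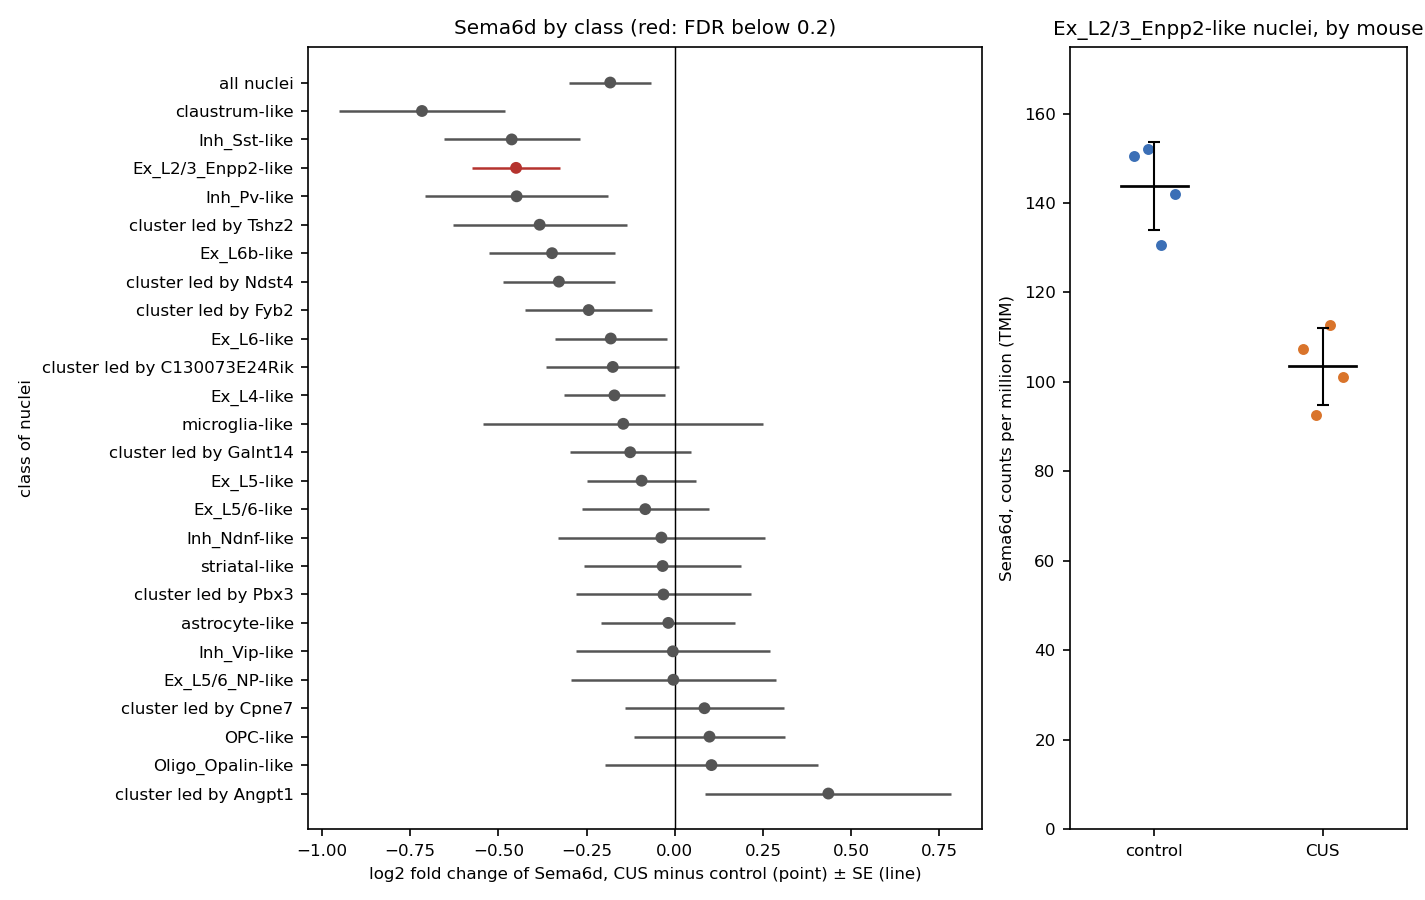
Left, log2 fold change of Sema6d, CUS minus control, in all nuclei and in each of 25 classes (rows), with ± 1 standard error, where red marks the only class past an FDR of 0.2. Right, CPM of Sema6d in Ex_L2/3_Enpp2-like nuclei of each mouse with mean ± SD, where the 4 CUS mice lie between 92.7 and 113 CPM and the 4 control mice between 131 and 152 CPM.

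Other pairs had an unadjusted p under 0.05 and did not pass the FDR. Sema3a, a repellent of cortical axons and a component of perineuronal nets, had 91.7, 114, 85.0 and 56.1 CPM in control mice and 35.8, 68.3, 43.8 and 50.4 CPM in CUS mice in the cluster led by Ndst4, with CUS replicate 2 above control replicate 4 (log2 fold change -0.83, standard error 0.22, edgeR FDR 0.4001, and -0.38 at a clustering resolution of 0.6). In the cluster led by Galnt14 it had 41.4, 51.0, 39.1 and 30.2 CPM in control mice and 54.5, 67.7, 61.6 and 67.8 CPM in CUS mice, which did not overlap, as for 4.45% of the genes tested there (log2 fold change 0.58, standard error 0.23, edgeR FDR 0.438). Both clusters lay outside the named classes. In the latter, Sema4a had 39.0, 39.5, 29.98 and 45.3 CPM in control mice and 61.3, 56.0, 66.8 and 47.3 CPM in CUS mice, also apart (log2 fold change 0.64, edgeR FDR 0.425).

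Sema6a in the cluster led by Fyb2 had 264, 273, 324 and 239 CPM in control mice and 373, 477, 350 and 539 CPM in CUS mice, without overlap, as for 2.61% of the genes tested (log2 fold change 0.64, edgeR FDR 0.807). Its bulk fold change had the opposite sign. Plxnc1, the receptor of Sema7a, had 76.4, 83.6, 77.6 and 90.1 CPM in control mice and 39.3, 57.6, 76.4 and 58.6 CPM in CUS mice in Ex_L4-like nuclei, with CUS replicate 3 just below the control mice, where 4.5% of the genes tested had no overlap (log2 fold change -0.46, edgeR FDR 0.461). Plxnc1 was tested in 16 classes and its fitted value was below 0 in 14, signs that are not independent since the classes share the same mice. The lowest was -1.02 in the cluster led by Angpt1, where control mice had 0, 206, 105 and 60.1 CPM and CUS mice 20.3, 27.8, 0 and 98.0 CPM. That cluster gave 61 UMIs of Plxnc1 in all, and its groups overlapped fully. Its log2 fold change was -2.56 without CUS replicate 4, -0.36 without control replicate 2 and -0.30 without the doublet filter.

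Sema6d in claustrum-like nuclei had 220, 341, 342 and 215 CPM in control mice and 147, 198, 226 and 127 CPM in CUS mice, with 1 CUS mouse above 2 control mice. In Inh_Sst-like nuclei it had 461, 738, 489 and 478 CPM in control mice and 270, 551, 393 and 374 CPM in CUS mice (log2 fold change -0.46, edgeR FDR 0.849), and control replicate 2 was far above the others. Sema4d in the cluster led by Ndst4 had 15.3, 36.5, 34.3 and 31.7 CPM in control mice and 59.6, 35.2, 52.3 and 44.0 CPM in CUS mice, where CUS replicate 2 overlapped (log2 fold change 0.66, edgeR FDR 0.528).

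The genes called in bulk were examined in the same classes. Nrp1 was tested in 15 classes, with fitted values above 0 in 9 and below 0 in 6, from -0.42 to 0.51. Nrp2 was tested in 14, with 9 below 0, from -0.54 to 0.74, and Plxna4 in 23, with 13 below 0, from -0.49 to 0.72. None of these pairs had an unadjusted p under 0.05, and the classes share the same mice. In Ex_L2/3_Enpp2-like nuclei Nrp1 was below the filter on low counts with 322 UMIs in all, at 28.3, 23.4, 17.6 and 21.7 CPM in control and 54.1, 37.9, 33.7 and 30.7 CPM in CUS mice. The CUS mice stood above the control mice there, where 5.31% of the genes past the filter had groups without overlap. Without the filter Nrp1 had a log2 fold change of 0.81 (edgeR FDR 0.0794). Calls over all genes and classes then went from 131 to 247. The pair is singled out from many by this call, and its relation to the bulk value was not tested. With that filter removed, Sema6d in the same class no longer passed.

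Genes that act beside or below the receptors were taken from lists of co-receptors, exchange factors and kinases bound by plexins, Mical and collapsin response mediator proteins, and small GTPases with their actin effectors. Of 48 listed, 47 were tested in bulk, 2 were called, a share of 4.26% that is near the 3.29% of all genes, and the median log2 fold change was -0.05. Gsk3b, a kinase that controls collapsin response mediator proteins, had 235 to 252 CPM in control and 202 to 217 CPM in CUS mice. It fell from 243 ± 6.74 CPM (SD, n = 4) to 211 ± 6.14 CPM (SD, n = 5), a log2 fold change of -0.21 (edgeR FDR 0.0397). Mical2, an enzyme that oxidizes actin, had 371, 436, 610 and 410 CPM in control mice and 775, 545, 671, 667 and 646 CPM in CUS mice, where control replicate 3 lay above CUS replicate 2. It rose from 457 ± 106 CPM (SD, n = 4) to 661 ± 81.8 CPM (SD, n = 5), a log2 fold change of 0.53 (edgeR FDR 0.0476). Neither was called when control replicate 2 or 4 or CUS replicate 1, 3, 4 or 5 was left out. No co-receptor (10 tested) and no small GTPase or actin effector (14 tested) was called. Of the 14, 5 had lower fitted values with an unadjusted p under 0.05, with log2 fold changes from -0.21 to -0.15 (lowest edgeR FDR 0.119), where 21.5% of all genes tested were under this limit in either direction.

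Mical2 was also the sole gene of these lists called in all nuclei, and the only call among the 5018 genes tested there (0.0199%). The lists were chosen with earlier results of these data known, so this call is no independent result. It rose from 140 ± 7.01 to 230 ± 24.4 CPM (SD, n = 4 each), a log2 fold change of 0.73 (edgeR FDR 0.0268). It was called higher in Ex_L2/3_Enpp2-like nuclei (log2 fold change 0.89, edgeR FDR 0.00156), in Ex_L4-like nuclei (1.01, edgeR FDR 0.000535), in Ex_L5/6-like nuclei (0.69, edgeR FDR 0.175) and in the cluster led by Galnt14 (0.67, edgeR FDR 0.134). The groups did not overlap in Ex_L2/3_Enpp2-like and Ex_L4-like nuclei, where 5.31% and 4.5% of all genes tested had groups without overlap. In the cluster led by Galnt14 they overlapped. In the classes where Mical2 was called, in the order given above, the percentage of tested genes called higher was 0.503%, 0.197%, 0.0341% and 0.153%. Rras2, a small GTPase of the R-Ras family on which plexins act, was called lower in Ex_L4-like nuclei (-0.59, edgeR FDR 0.181) and in the cluster led by Galnt14 (-0.91, edgeR FDR 0.176), where 0.218% and 0.21% of the genes tested were called lower. Chl1, a cell adhesion molecule and co-receptor of class 3 semaphorins, was called lower in the cluster led by C130073E24Rik (-0.80, edgeR FDR 0.181), where 0.0869% were called lower.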

How the data were processed

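Each mouse was 1 replicate, grouped by its labels. The bulk values are counts of uniquely mapped reads per gene, which the authors made with STAR on mm10 and deposited without normalization. The library kit marks strand, but whether strand and introns were used in counting is not given in the sources used here. The single-nucleus values are UMI counts per gene that the authors deposited for 5000 barcodes a mouse, from exonic and intronic reads on the strand of the gene, before any filter on nuclei. The study tested its counts with edgeR's likelihood ratio test, for the nuclei with a batch term. The likelihood ratio test is an alternative here, without that term.

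Here, genes kept by filterByExpr in bulk were tested with the quasi-likelihood test of edgeR 4.0.16 (R 4.3.3, TMM factors, FDR 0.05). Of the nuclear barcodes, those with 600 to 5000 genes, less than 5% mitochondrial UMIs and a Scrublet score of 0.2 or lower (scanpy 1.11.5, expected doublet rate 0.1) stayed, and 4788 (15.2%) were removed by the last step. The study states a larger number of nuclei kept. Clustering used Seurat 5.3.0 (2000 variable genes, of which 11 from the family were left out, 50 principal components, 20 neighbors, resolution 1). A cluster took a type's name if 3 or more of its markers were enriched (1.5-fold, detected in 5% of nuclei) and 2 or more stood among the 10 genes that led it (detected in 25% of nuclei). UMIs were summed per mouse and class. Classes over 200 nuclei were tested with the same tool for every gene whose UMIs came to more than 10% of the number of nuclei (FDR 0.2). Log2 ratios between classes used CPM plus 1.

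The genes, the lists and the cut-offs for names were chosen with earlier results of these data known. Values per mouse are given for genes of the family called and, up to 10 per comparison, for those of smallest unadjusted p under 0.05. Alternatives were the likelihood ratio test, DESeq2 1.42.0, RLE or no scaling factors, no low-count filter, a replicate block, each mouse left out, no doublet filter, 1000 or more genes per nucleus, resolutions of 0.6 and 1.5 and clustering with the family's genes. The fit of 8 bulk mice without the block was added after seeing the data. In simulated bulk counts (18394 genes), 82% of genes changed by 1 (log2) and 41% of those changed by 0.4 were recovered, and 7.52% of calls were false. In counts simulated for Ex_L2/3_Enpp2-like nuclei (5369 genes), recovery was 100% and 39%, and 26.8% of calls were false. Both simulations drew each gene independently, without shifts that many genes of a mouse share, so these percentages need not hold for the real counts. No label says that the mice of a group came from separate litters, so p-values measure the spread between these mice.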

Additional observations from a re-analysis of the deposited data

Results flagged for a closer look

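Sema6d in Inh_Sst-like nuclei had 1 control mouse far from the others, replicate 2, at 738 CPM, where the other 3 were at 461 to 489 CPM and the gap was 0.900 of the range of the control mice. Without this mouse the log2 fold change went from -0.46 to -0.29. Over the 40 groups of mice checked in this way, chance alone flags about 1 in 20.

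Sema3a had fitted values of opposite sign in 2 clusters, each with an unadjusted p under 0.05, higher in CUS mice in the cluster led by Galnt14 and lower in the cluster led by Ndst4. The log2 ratio of its level in the former to that in the latter was -1.04 ± 0.17 in control and 0.35 ± 0.27 in CUS mice (SD, n = 4 each), apart by 1.39. The pair was picked for its opposite signs, so these values are a description and the difference was not tested independently. Neither cluster passed the FDR for Sema3a, and at a clustering resolution of 0.6 its log2 fold change in the cluster led by Ndst4 was -0.38 in place of -0.83.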

How the results depend on the processing

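In bulk, 3 genes of the family and 2 of the pathway lists were called. The likelihood ratio test called 5 and 4, as did DESeq2 with 5 and 4, with Sema3d and Sema6b added in the family, while calls over all genes went from 606 to 1330 and 1366, and RLE factors, no TMM factors and no filter left the family at 3. Replicate numbers were not shown to pair the mice (correlations of deviations from 0.02 to 0.18 in bulk, where 3 of 4 correlated best with their own number, and from -0.22 to 0.24 in nuclei, where 0 of 4 did). With a replicate block, on 8 mice, 1 gene of the family (Plxna4) and 1 of the pathway lists were called, against 1 and 0 in the same 8 mice with no replicate block, which is the fit without CUS replicate 5. Of 18230 genes tested, 233 were called with the block and 140 without it. Leaving out each mouse in turn gave 0 to 9 calls in the family and 0 to 7 in the pathway lists, with 133 to 1508 over all genes.

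In all nuclei, 0 genes of the family were called under every alternative except without CUS replicate 2, where 1 was (Sema6d), so that leaving out each mouse gave 0 to 1. Fold changes near 0 changed sign there. Leaving out each mouse moved Sema3e from -0.14 to 0.029, above 0 without CUS replicate 1 or control replicate 2 (0.022), and Plxna4 from -0.073 to 0.031, above 0 without control replicate 2. Sema6a was at -0.0095 without the doublet filter.

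In the classes, 1 call became 2 with the likelihood ratio test, 0 without TMM factors, 2 without the filter (Nrp1 in Ex_L2/3_Enpp2-like nuclei, higher, and Sema3a in the cluster led by Ndst4, lower) and 0 to 2 with each mouse left out. Calls over all genes went from 131 to 385 with the likelihood ratio test, 103 without TMM factors and 247 without the filter. They lay between 37 and 1354 with each mouse left out. With at least 1000 genes per nucleus, the 1 call was Nrp1 (higher) in place of Sema6d. The block, DESeq2, RLE factors, both other resolutions, no doublet filter and family genes among the variable genes kept 1 call, Sema6d. The cause of these differences was not tested. Genes with few UMIs per class were beyond the depth of the nuclei.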
